A study of Mus musculus with 8 samples.

Results

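Ptma, the gene of prothymosin alpha, was followed across single cells of mouse stomach glands. It is 1 gene of the 779 with a complete row in the table, and it was read in 1388 of 1460 cell barcodes, those with 100 or more unique molecular identifiers (UMIs, each a tag for 1 captured transcript). The glands were taken at 23 weeks of age from a mouse with the genotype Atp4bCre; Rosa26NICD; Arid1a flox/flox, as each label puts it. Atp4b encodes a proton pump subunit of parietal cells, and its promoter drives Cre. Cre turns on a Notch intracellular domain transgene at Rosa26 and deletes floxed Arid1a, the gene of a BAF chromatin remodelling subunit. All 8 samples carry these alleles and no other genotype was compared. The barcodes name no sample, so the table counts as 1 sample with no replicates.

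Prothymosin alpha is a small, very acidic and disordered nuclear protein. It binds histones, in particular the linker histone H1, takes part in chromatin decondensation, and has been tied to the release of NRF2 from KEAP1 and to inhibition of the apoptosome. Its transcript is abundant in most dividing cells, and Ptma is a known target of MYC. Gastric glands hold both dividing progenitors and non-dividing, differentiated cells.

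Ptma (ENSMUSG00000026238.14) lies on chromosome 1 from 86526726 to 86530712, plus strand, in GRCm38. RefSeq starts it earlier, at 86526557, and which start the counted transcripts use was not measured. Its promoter is shown as the RefSeq sequence around that start, on GRCm38.p6, chr1:86526307-86526606, plus strand, 250 bases before the RefSeq start and 50 after it. Capitals mark the GC box searched for, GGGCGG, on either strand.
Ptma promoter: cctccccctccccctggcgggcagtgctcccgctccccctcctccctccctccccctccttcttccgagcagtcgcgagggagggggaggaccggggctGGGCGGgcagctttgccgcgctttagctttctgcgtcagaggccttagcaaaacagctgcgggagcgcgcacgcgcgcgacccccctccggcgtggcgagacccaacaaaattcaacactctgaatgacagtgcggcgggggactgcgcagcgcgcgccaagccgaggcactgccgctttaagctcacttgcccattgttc
The promoter window is rich in G and C, at 68% against a median of 52.7% over 32851 promoters in the RefSeq table, and it holds 1 GC box, which 35.7% of these promoters have. None of the letters CACGTG (the E-box, in 7.15% of promoters), TGACGTCA (the cyclic AMP element, 1.79%) or TTTCGCGC and TTTGGCGC (E2F, 0.813%) occurs in it on either strand. RefSeq also lists the copies Ptma-ps2 on chromosome 4 and Ptma-ps1 on chromosome 7. How reads shared with such copies were counted is not given in the sources used here, so the Ptma count is uncertain to that extent.

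The table covers mainly a part of chromosome 1, where 711 of its 779 complete rows were matched, and the others were not placed. It held 439743 UMIs in the kept barcodes, with a median of 286 and a range of 100 to 1082 per barcode. Levels are therefore relative to these UMIs and not to the library. The cells had been sorted for high EPCAM, and the stromal markers were nearly absent, with 1 UMI each of Col3a1, Col5a2 and Des. Immune genes such as Ctla4 (13 UMIs) and Icos (4 UMIs) were rare. Intervals below are 95% intervals for counting error only, because cells are not replicates, and no p-value is given.

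Ptma was found in every kept barcode. It had 41303 UMIs, 9.39% of the total (9.31 to 9.48), which gave it rank 3 after the ribosomal protein genes Rpl37a (19.4%) and Rpl7 (11.6%) and just ahead of Rpl31 (9.33%). A barcode held between 1 and 308 Ptma UMIs, with a median of 23. The share per barcode ran from 0.453% to 28.5%, with a median of 8.10%, 5.90% and 10.99% at the 25th and 75th percentiles, and 3.11% and 16.1% at the 5th and 95th. The barcode with the highest share was also the deepest of all, with 308 Ptma UMIs among 1082. The next had 100 of 391, 135 of 576, 123 of 539 and 41 of 180. At the other end, 4 barcodes with totals of 107 to 221 UMIs held 1 Ptma UMI each.

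The share varied between barcodes by more than counting alone gives. The variance of the Ptma count was 6.63 times the binomial variance, the highest of the 24 genes with 2000 or more UMIs, ahead of the glutathione transferase gene Gsta3 (6.40), Rpl37a (4.06) and the retinol dehydrogenase gene Rdh10 (3.26). The median over these genes was 1.82, and the mitochondrial ribosome gene Mrpl30 (1.03) stayed near counting error. This ratio grows with abundance. The variation beyond counting, as a percentage of the mean, was 45.7% for Ptma, eighth of the 24, against 114% for Gsta3, 88.9% for Rdh10, 19.5% for Rpl37a and 14.9% for Rpl31. Ptma varied more in relative terms than the 3 ribosomal protein genes of like abundance and less than the patchy genes Gsta3 and Rdh10. Among the 712 barcodes of 200 to below 400 UMIs the variance ratio was 5.06, and the variation beyond counting 39.7%.

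**Figure D1:**
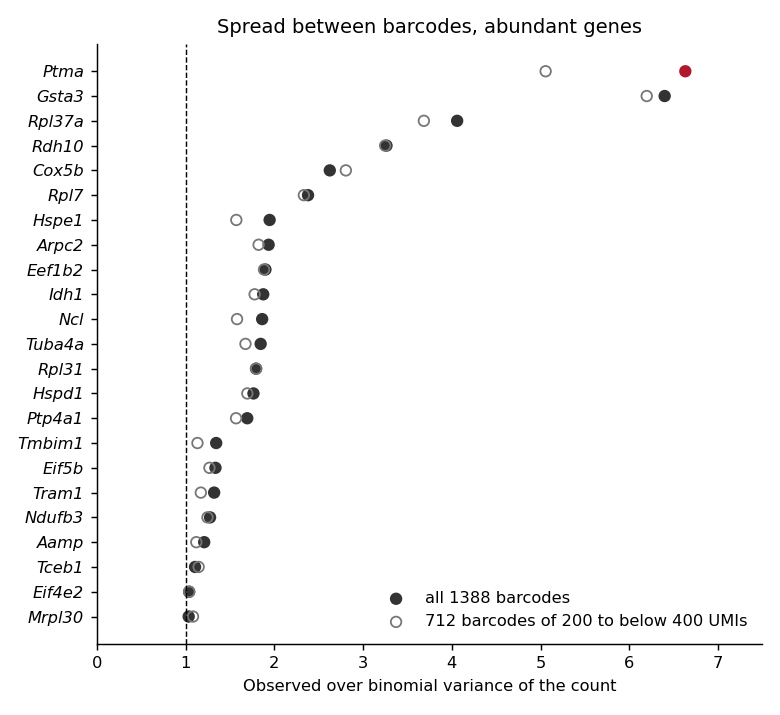
Observed over binomial variance of the count per barcode for 23 of the 24 genes with 2000 or more UMIs, in all 1388 barcodes (filled) and in the 712 barcodes of 200 to below 400 UMIs (open); the dashed line at 1 is counting error. Ptma (red) is at 6.63 in all barcodes and 5.06 in the narrower band, where Gsta3 is higher at 6.20.

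Barcodes with more UMIs gave a larger part of them to Ptma. The pooled share was 6.76% (6.40 to 7.14) in the 137 barcodes of 100 to 149 UMIs, 8.08% (7.92 to 8.25) at 200 to 299 UMIs and 9.71% (9.50 to 9.92) at 400 to 499. It reached 12.7% (12.43 to 13.03) in the 69 barcodes of 600 or more. Shares above 15% were found in 1.46% of barcodes at 100 to 149 UMIs and in 31.9% at 600 or more, while shares below 5% made up 34.3% and 4.35% of these bands. The total that sets the bands includes Ptma, so Ptma UMIs themselves help to place a barcode in a higher band. The differences between bands are enlarged by this overlap. Spearman's rho between the share and the total without Ptma was 0.248 over the 1388 barcodes, which come from 1 pooled table. With Ptma left in the total it was 0.326, since the same UMIs then count on both axes.

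The share of some other genes also grew with the total. Of the same 24 genes, 14 had a rho above 0 when each gene's share was set against the total without it. The mitochondrial chaperonin genes Hspd1 (rho 0.350) and Hspe1 (0.337) were the 2 above Ptma, and Tuba4a (0.217), Eif4e2 (0.202), Gsta3 (0.197) and Arpc2 (0.186) came next after it. Rpl7 (-0.0448) and Rpl31 (-0.0141) had rho values near 0, and Rpl37a went the other way (-0.290).

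**Figure D2:**
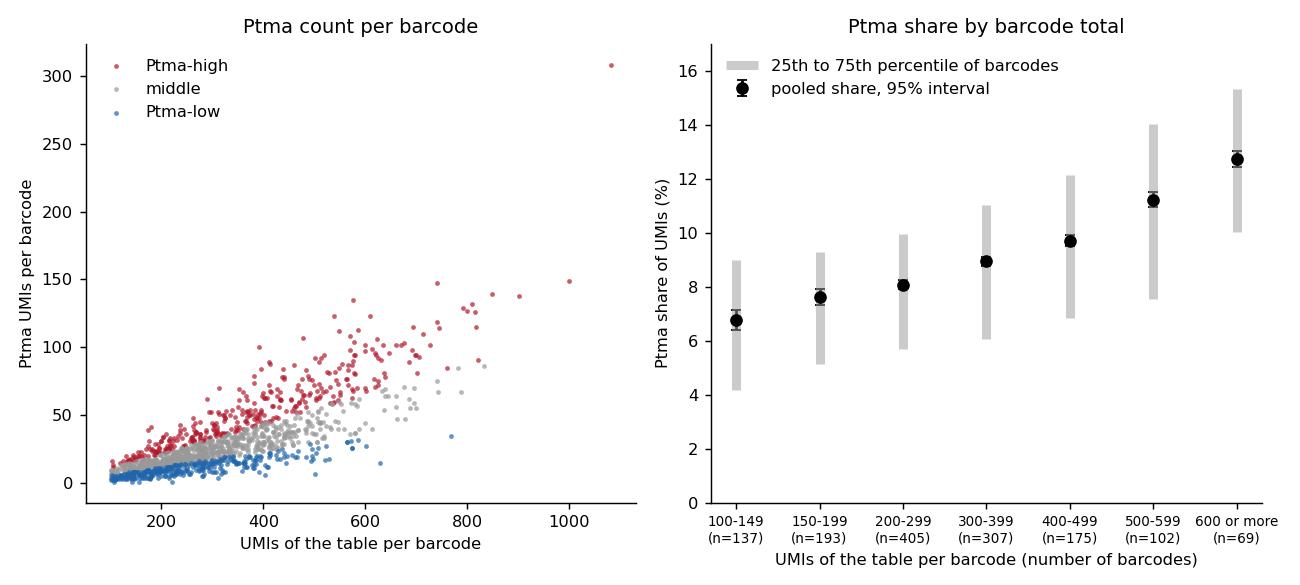
Left, Ptma UMIs against all UMIs of the table in each of 1388 barcodes, coloured by the highest 347 (Ptma-high), the middle 694 and the lowest 347 (Ptma-low) by Ptma share. Right, pooled Ptma share with its 95% counting interval (points) and the 25th to 75th percentile of barcodes (grey bars) in bands of the total. The bands use the total with Ptma included, and the share runs from 6.76% at 100 to 149 UMIs to 12.7% at 600 or more.

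To find the genes that go with Ptma, the 347 barcodes with the highest Ptma share, called Ptma-high here, were set against the 347 with the lowest, called Ptma-low. Both sets were chosen by measured Ptma share, so their Ptma values only describe that choice. The pooled share was 14.4% in Ptma-high and 4.26% in Ptma-low barcodes. Just inside and just outside the Ptma-high set the share was 10.99% on both sides, and at the Ptma-low set it was 5.894% inside and 5.896% outside. Levels of the other genes are given in CPM, counts per 1000000, of the UMIs without Ptma. Ptma-high barcodes were deeper, with a median of 320 UMIs without Ptma against 221 in Ptma-low barcodes. Ratios are therefore also given for Ptma-high and Ptma-low sets drawn within 5 bands of the total, called depth-matched here, whose medians were 268 and 269 UMIs.

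Most genes differed little. Of 169 genes with 100 or more UMIs in both sets together, 113 had a ratio of Ptma-high to Ptma-low between 0.8 and 1.25, and the median ratio was 1.01. A ratio of 1.5 or more was reached by 12 genes (7.10% of the 169), and 8 genes (4.73%) were at its inverse or below. In depth-matched sets 6 genes were past the limit higher, 5 of them among the 12, and 3 lower, all among the 8. The higher genes named here are Mcm3, Hjurp, Terf1, Pde6d, Rrs1, Hspd1, Ccnyl1, Nop58, Orc2, Mrpl44 and Atic. The 8 were Alpi, Fn1, Tm4sf20, Ptpn18, Il18r1, Pgap1, Pecr and Ccl20. Just outside the upper limit was Tex30 (1.497), and closest to the lower were Ccl20 inside (0.659) and Vcpip1 outside (0.698). The 12 gene lists described below held 77 genes, of which 40 could be compared, with 6 past the limit higher and 5 lower. They were chosen with earlier results known.

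**Figure D3:**
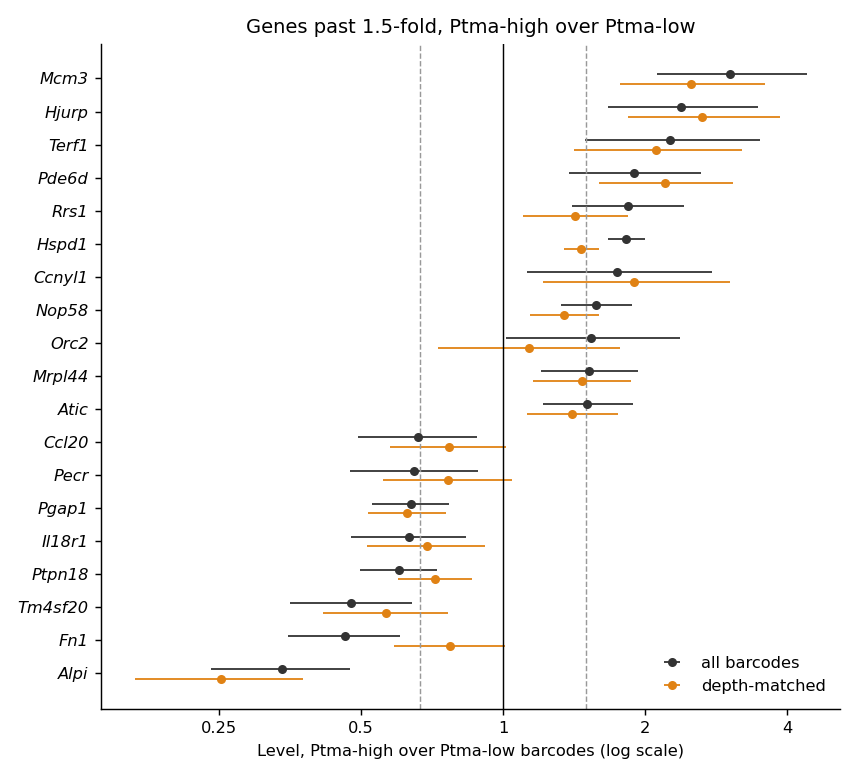
Level in Ptma-high over Ptma-low barcodes, on a log scale, for 19 of the 20 genes past 1.5-fold (dashed lines), with 95% counting intervals. Black points use all barcodes and orange points the depth-matched sets; Mcm3 and Hjurp lie above 2 and Alpi below 0.5 in both.

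Genes of DNA replication and of the centromere had the highest ratios. Mcm3, a subunit of the replicative helicase (chromosome 1, 20802968 to 20820312), was at 1364 CPM in Ptma-high barcodes (160 UMIs) and 452 CPM in Ptma-low barcodes (39 UMIs), a ratio of 3.02 (2.12 to 4.40). Mcm3 UMIs were present in 26.5% of Ptma-high and 9.80% of Ptma-low barcodes. Hjurp, the chaperone that places the centromeric histone (chromosome 1, 88262471 to 88277633), was at 1134 CPM in Ptma-high barcodes against 475 CPM in Ptma-low barcodes, 2.39-fold (1.67 to 3.48). Both differences remained in depth-matched sets, at 2.50 (1.77 to 3.58) for Mcm3 and 2.64 (1.84 to 3.85) for Hjurp. Orc2, of the origin recognition complex, had a ratio of 1.54 (1.01 to 2.37), but 1.13 (0.727 to 1.77) depth-matched.

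The replication, repair and centromere list held 14 genes, chosen with earlier results known, and 13 had a row. With the 100 UMI minimum, 4 could be compared, and their median ratio was 1.96. Of these, 3 were past 1.5-fold higher and 0 lower, against 7.10% and 4.73% of all 169 genes. With 4 genes the 0 lower cannot be read, and Orc2, 1 of the 3, was at 1.13 depth-matched. The sparse members did not all go one way. Sgol2, a protector of centromeric cohesion, had 40 UMIs in Ptma-high barcodes and 2 in Ptma-low barcodes (ratio 14.7, 3.82 to 126). Bard1, the partner of BRCA1, had 33 and 3 UMIs (8.10, 2.54 to 41.3), Prim2, a primase subunit, 44 and 5 (6.48, 2.58 to 20.9), and 2810408I11Rik 50 and 9 (4.09, 1.99 to 9.46). These UMIs were spread out: the 40 of Sgol2 came from 31 barcodes and the 33 of Bard1 from 29.

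The other repair genes of the list had ratios below 1. Xrcc5, which encodes the Ku80 end-joining protein, had a ratio of 0.830 (0.605 to 1.14), Smarcal1, an annealing helicase gene, 0.828 (0.460 to 1.499), Ercc5, a nucleotide excision nuclease gene, 0.931 (0.580 to 1.505) and Rev1, a translesion polymerase gene, 0.785 (0.364 to 1.71). Nabp1 and Pms1 had 19 and 6 UMIs in Ptma-high barcodes against 19 and 7 in Ptma-low barcodes. All these intervals include 1, so no difference was detectable at this depth, and Ercc5 and Rev1 were above 1 depth-matched, at 1.11 and 1.23.

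Both mitochondrial chaperonin genes were higher with Ptma, by smaller factors than Mcm3. Hspd1, the large mitochondrial chaperonin (chromosome 1, 55077835 to 55088243), was at 15078 CPM in Ptma-high barcodes and 8261 CPM in Ptma-low barcodes, 1.83-fold (1.67 to 1.99). Its partner Hspe1 was at 34897 CPM in Ptma-high barcodes and 24805 CPM in Ptma-low barcodes, 1.41-fold (1.33 to 1.48). Both values were smaller in depth-matched sets, 1.46 (1.34 to 1.59) for Hspd1 and 1.23 (1.17 to 1.30) for Hspe1. The annotated starts of these 2 genes overlap on opposite strands, and whether counting used the strand is not given.

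The 5 comparable genes of the nucleolar list of 6 had ratios above 1, with a median of 1.27, and 1 passed 1.5-fold. That count is too small to read against the 7.10% of all genes. The sparse sixth member, Utp14b, had 10 UMIs in Ptma-high barcodes and 12 in Ptma-low barcodes (0.613, 0.237 to 1.55). The gene that passed was Nop58, a core protein of small nucleolar RNA complexes, at 3590 CPM in Ptma-high barcodes and 2282 CPM in Ptma-low barcodes, 1.57-fold (1.33 to 1.87) and 1.35-fold (1.14 to 1.60) depth-matched. Ncl, which encodes nucleolin, was 1.38-fold (1.29 to 1.49) and 1.31-fold (1.22 to 1.40) depth-matched. Imp4 was at 1.27 (1.00 to 1.60), and the intervals of Wdr75 (1.13) and Wdr12 (1.10) included 1, with Wdr75 at 0.977 depth-matched. Outside the lists, the ribosome assembly gene Rrs1 was 1.84-fold (1.40 to 2.42) and 1.42-fold (1.10 to 1.84) depth-matched, at 1637 CPM in Ptma-high barcodes and 892 CPM in Ptma-low barcodes.

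The other genes past the limit have varied roles. Terf1, which encodes a telomere repeat binding protein, was 2.26-fold (1.49 to 3.50) and 2.11-fold (1.41 to 3.20) depth-matched, but 0.907 after thinning each barcode to 100 UMIs, which left 16 and 20 Terf1 UMIs. Atic, an enzyme of purine synthesis, was 1.51-fold (1.21 to 1.88), Mrpl44 of the mitochondrial ribosome 1.52-fold (1.20 to 1.94) and the cyclin Y-like gene Ccnyl1 1.74-fold (1.12 to 2.77). Depth-matched, Atic (1.40) and Mrpl44 (1.47) were under 1.5-fold and Ccnyl1 (1.90) was not.

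Among genes with 100 or more UMIs in both sets together, the lowest ratio was that of Alpi. Alpi, intestinal alkaline phosphatase (chromosome 1, 87098002 to 87101606), was at 452 CPM in Ptma-high barcodes (53 UMIs) and 1332 CPM in Ptma-low barcodes (115 UMIs), a ratio of 0.339 (0.240 to 0.474). This rests on few barcodes, because 4.90% of each set had an Alpi UMI and 1 Ptma-low barcode held 50 of them. Without the 3 barcodes richest in Alpi the ratio was 0.408. Reads that Alpi shares with its close copy Akp3, listed at 0, could have been counted either way. Tm4sf20, which encodes a tetraspan membrane protein, was at 657 CPM in Ptma-high barcodes and 1379 CPM in Ptma-low barcodes, 0.476-fold (0.353 to 0.640) and 0.566-fold (0.416 to 0.764) depth-matched.

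Fn1, the fibronectin gene, was at 759 CPM in Ptma-high barcodes and 1645 CPM in Ptma-low barcodes. Its ratio of 0.461 (0.350 to 0.606) depended on depth and was 0.771 (0.587 to 1.01) in depth-matched sets. Pgap1, an enzyme of GPI anchor processing, was at 0.637 (0.528 to 0.769) and at 0.626 (0.518 to 0.755) depth-matched. The tyrosine phosphatase gene Ptpn18 was at 0.601 (0.498 to 0.724), the receptor gene Il18r1 at 0.631 (0.475 to 0.836), the peroxisomal reductase gene Pecr at 0.647 (0.473 to 0.884) and the chemokine gene Ccl20 at 0.659 (0.494 to 0.879). Depth-matched, Ptpn18, Il18r1, Pecr and Ccl20 lay between 0.688 and 0.766. The intervals of Pecr (0.557 to 1.042) and Ccl20 (0.577 to 1.015) then included 1, and those of Ptpn18 and Il18r1 did not. The share of barcodes with a UMI was nearly equal for Ptpn18, at 36.9% of Ptma-high and 36.6% of Ptma-low. Of its UMIs, 1 Ptma-low barcode held 23. Ccl20 was found in 10.1% of Ptma-high and 9.51% of Ptma-low barcodes, and 3 barcodes held 102 of its 480 UMIs. Its ratio ran from 0.338 to 0.859 over 11 alternative settings and was past the limit in 4.

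The epithelial differentiation and transport list of 17 had a median ratio of 0.717 over its 9 comparable genes, with 8 below 1. Of the 9, 3 were past the lower limit (Alpi, Tm4sf20 and Fn1) and 0 past the upper, against 4.73% and 7.10% of all 169 genes. With 9 genes the 0 past the upper limit cannot be read. Depth-matched, Fn1 was at 0.771 and not past the lower limit, while Arl4c was past the upper limit at 1.95. Rdh10, which starts retinoic acid synthesis from retinol, was at 7488 CPM in Ptma-high barcodes and 10439 CPM in Ptma-low barcodes (0.717, 0.653 to 0.788), and 0.674 (0.613 to 0.741) depth-matched. The sodium/proton exchanger gene Slc9a4 was at 0.701 (0.580 to 0.847) and Vil1, which encodes the brush border protein villin, at 0.817 (0.712 to 0.938). Ihh was at 0.907 (0.715 to 1.15). Slc9a2, an exchanger gene related to Slc9a4, had 26 UMIs in Ptma-high barcodes and 36 in Ptma-low barcodes (0.532, 0.308 to 0.905). Igfbp5, which encodes a secreted binder of insulin-like growth factors, had 11 and 65 (0.125, 0.0593 to 0.238). Other sparse members had intervals that include 1. Igfbp2 had 21 UMIs in Ptma-high barcodes and 12 in Ptma-low barcodes (1.29), Xkr9 17 and 10 (1.25) and Slc4a3 9 and 4 (1.66), while Cyp27a1 had 20 and 21 (0.701) and B3gnt7 14 and 18 (0.573).

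The list members Arl4c and Itm2c were both above 1 in depth-matched sets. Arl4c, a small GTPase gene, was at 2473 CPM in Ptma-high barcodes and 1668 CPM in Ptma-low barcodes, 1.48-fold (1.21 to 1.82), and at 1.95 (1.60 to 2.39) when depth was matched. The membrane protein gene Itm2c had a ratio of 0.833 (0.723 to 0.960), but 1.17 (1.01 to 1.34) depth-matched.

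Ribosomal protein genes had ratios near or below 1, and the respiratory list centred near 1. In the list of 4 translation genes 0 passed the limit in either direction and the median ratio was 0.945. Rpl7 was at 126096 CPM in Ptma-high barcodes and 124119 CPM in Ptma-low barcodes, a ratio of 1.02 (0.991 to 1.04), and Rpl31 at 0.994 (0.967 to 1.02). Rpl37a was at 200623 CPM in Ptma-high barcodes and 229354 CPM in Ptma-low barcodes (0.875, 0.858 to 0.891), and the elongation factor gene Eef1b2 at 0.896 (0.861 to 0.933). Among 9 comparable genes of the respiratory chain and mitochondrial ribosome the median was 1.05, with Mrpl44 the 1 past 1.5-fold. The counts of both lists are too small to read against the 7.10% and 4.73% of all genes. Cox5b, of cytochrome c oxidase, was at 0.943 (0.908 to 0.980) and Ndufs1 of complex I at 0.991 (0.811 to 1.21). Mrpl15 of the mitochondrial ribosome was at 1.32 (1.14 to 1.52). The total used to rank barcodes includes the genes of both lists, so their ratios partly follow from the ranking. With each gene taken out of that total, Rpl37a was at 0.929, Rpl7 at 1.05 and Cox5b at 0.9998.

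Lists of apoptosis and redox genes were compared as well. The part of prothymosin alpha protein in such processes was not measured, and these genes do not stand for it. The initiator caspase gene Casp8 had a ratio of 1.18 (0.948 to 1.47), its regulator Cflar 0.853 (0.671 to 1.09) and the kinase gene Stk17b 0.923 (0.647 to 1.32). Of these 3 comparable apoptosis genes 0 passed the limit, a count too small to read against the 7.10% and 4.73% of all genes. Stradb had 55 UMIs in Ptma-high barcodes and 39 in Ptma-low barcodes. The list's median was 0.923, and 1.04 depth-matched. Of the redox enzyme genes, Gsta3 was at 1.16 (1.08 to 1.25) and Idh1 at 1.03 (0.930 to 1.13). The aldehyde oxidase gene Aox1 had 1 UMI in Ptma-high barcodes and 7 in Ptma-low barcodes, a ratio of 0.105 (0.00233 to 0.819). The intervals of Gsta3 and Aox1 exclude 1, on opposite sides, but neither result was firm. Depth-matched, Aox1 was at 0.321 (0.0317 to 1.80) and Gsta3 at 1.15 (1.07 to 1.23). With Rpl7, Rpl31 and Rpl37a taken out, Gsta3 was at 0.954. Its counts varied by far more than these counting intervals cover.

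Markers of other cell classes were few in both sets. The 8 immune genes summed to 1254 CPM (1059 to 1473) in Ptma-high barcodes and 1773 CPM (1503 to 2077) in Ptma-low barcodes, most of it Il18r1, with Cxcr1 at 0. Its members differed in direction. The T cell genes Ctla4, Icos and Cd28 had 1, 0 and 0 UMIs in Ptma-high barcodes and 10, 4 and 3 in Ptma-low barcodes, while Il18rap had 39 and 16 (1.79, 0.980 to 3.44) and Il1r2 10 and 6. The Ptma-low UMIs of Ctla4 sat in 3 barcodes, those of Icos in 1 and those of Cd28 in 3. The tuft and leukocyte pair Ptpn18 and Inpp5d summed to 1885 CPM (1644 to 2150) in Ptma-high barcodes and 3047 CPM (2690 to 3438) in Ptma-low barcodes. That sum is nearly all Ptpn18, and Inpp5d had 12 UMIs in Ptma-high barcodes and 7 in Ptma-low barcodes (1.26, 0.458 to 3.78), with 2.73 (1.03 to 8.46) depth-matched. The 3 endocrine genes had 54 UMIs in Ptma-high barcodes and 36 in Ptma-low barcodes, but from different genes. Resp18 had 37 and 1, and Ptprn 10 and 35. These sit in few barcodes, since 60 of all 74 Resp18 UMIs came from 3. The part of these classes in the ratios above was not tested.

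The 1388 barcodes were also cut into 10 bins by Ptma share, low to high, of 138 or 139 barcodes each. The pooled Ptma share was 3.06% in the first bin, 7.64% in bin 5 and 16.9% in the last. Hspd1 was higher in the upper bins, with 7804 CPM in the first bin, 10901 in bin 5 and 15624 in the last, and Ncl likewise with 11857, 15725 and 19793 CPM. Mcm3 stayed between 302 and 683 CPM in the first 5 bins and between 1203 and 1453 CPM in the last 4. Hjurp was highest in the last bin, at 1370 CPM against 423 in the first.

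Alpi and Tm4sf20 were highest in the first bin, at 2147 and 2299 CPM, and at 888 and 777 CPM in the second. Alpi was lowest in bin 6 (149 CPM) and at 556 CPM in the last bin. Tm4sf20 was higher again in bin 5 (1333 CPM) and lower in the last (596 CPM), so the ratios of these 2 genes do not describe a steady trend. Arl4c was highest in the middle, with 1149 CPM in the first bin, 3944 in bin 5 and 2045 in the last. Rdh10 was at 12643 CPM in the first bin, 9834 CPM in bin 5 and at 5876 CPM in the last. Rpl37a drifted from 232745 to 198170 CPM. The median total per barcode grew along the same order, with 225 UMIs in the first bin and 414 in the last.

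**Figure D4:**
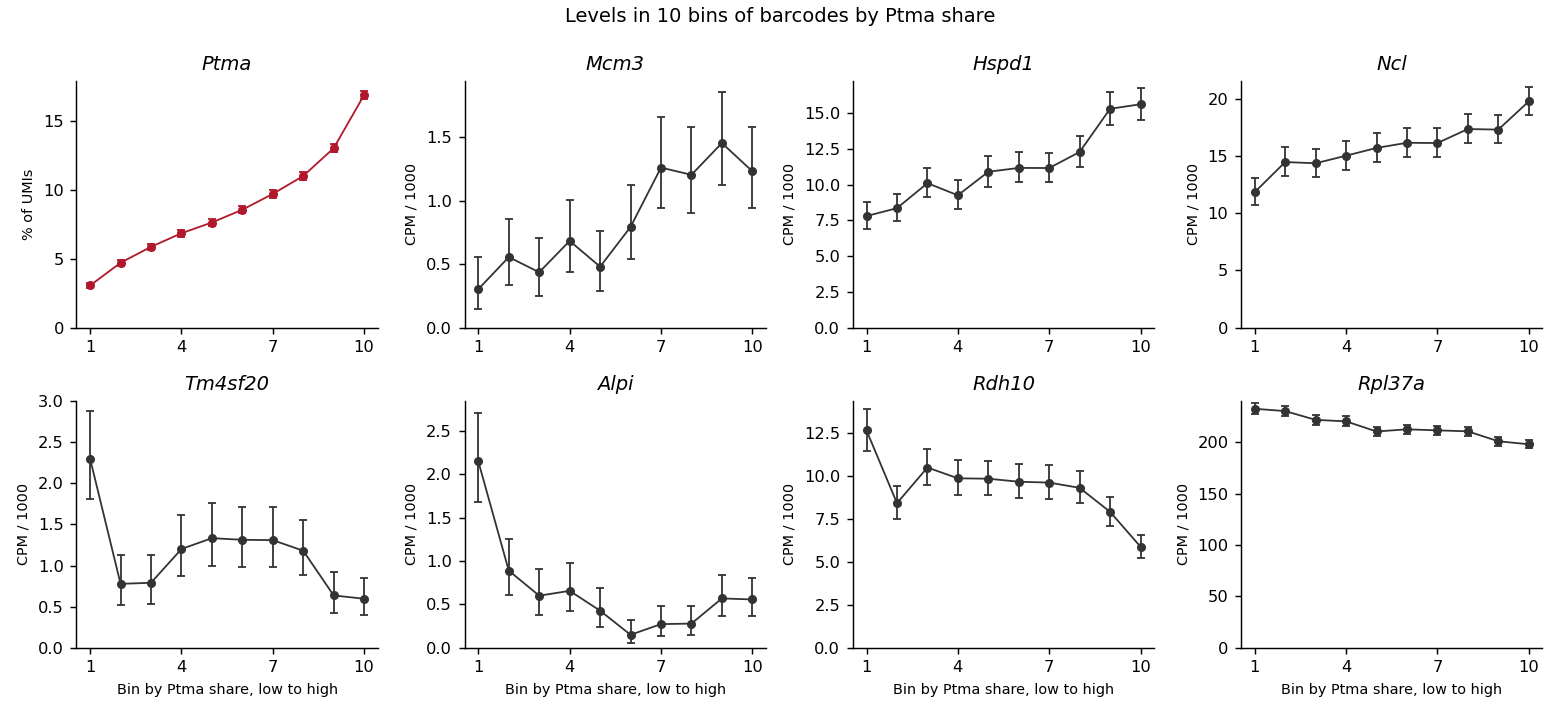
Levels in 10 bins of barcodes ordered by Ptma share, low to high, with 95% counting intervals; Ptma in percent of all UMIs, the others in CPM divided by 1000, of the UMIs without Ptma. Mcm3 lies between 1203 and 1453 CPM in the last 4 bins, Hspd1 and Ncl are lowest in the first bin and highest in the last, and Alpi and Tm4sf20 peak in the first bin at 2147 and 2299 CPM.

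Likeness to Ptma over single barcodes was measured as the correlation of Pearson residuals, the deviation of each count from what the barcode's total without Ptma predicts, for 97 genes with 500 or more UMIs. Among the 6 most like it were Hspd1 (0.275), Hspe1 (0.263), Ncl (0.192), the elongin C gene Tceb1 (0.176) and the tubulin gene Tuba4a (0.153), against a median of 0.00326 over the 97. The 4 least like it were Rpl37a (-0.218), Rdh10 (-0.146), Eef1b2 (-0.121) and Pgap1 (-0.121). All are weak in counts this sparse. They share 1 library pool and the depth trend: within 712 barcodes of 200 to below 400 UMIs Hspe1 fell to 0.0276 and Hspd1 to 0.111, while Ncl was at 0.120 and Rpl37a at -0.210.

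Ptma was next read in barcodes grouped by other genes. The grouping genes were chosen with earlier results known and the barcodes are the same, so these values are another view of the ratios above and not independent of them. The share of Ptma was 10.7% (10.5 to 10.8) in 463 barcodes with a UMI of Mcm3, Prim2, Bard1, Sgol2 or Hjurp and 8.57% (8.46 to 8.68) in the other 925, a ratio of 1.24 (1.22 to 1.27), with these genes taken out of the totals. Such barcodes were deeper, with a median of 359 UMIs against 261. Within bands the ratio was 1.11 (1.02 to 1.20) at 100 to below 200 UMIs, 1.17 (1.13 to 1.21) at 200 to below 400 and 1.15 (1.12 to 1.19) at 400 or more.

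Over all barcodes, the share was larger the more of these UMIs a barcode held. It was 8.57% at 0 UMIs, 9.23% (9.05 to 9.42) at 1, 11.5% (11.2 to 11.9) at 2, 12.3% (11.8 to 12.8) at 3 and 13.6% (13.2 to 14.0) in the 51 barcodes with 4 or more. Depth grew along with it, to a median of 556 UMIs in the last group. Among barcodes of 400 or more UMIs the share was 10.1% at 0 and at 1, 11.8% at 2, 13.1% at 3 and 13.5% (13.03 to 13.89) at 4 or more. In the band of 200 to below 400 UMIs it was 14.7% (13.5 to 15.9) at 4 or more, in 10 barcodes, and 8.11% (7.97 to 8.25) at 0, with 9.31% (8.37 to 10.3) in the 11 barcodes at 3. Depth still differed inside both bands. The median total was 480 UMIs at 0 and 584 at 4 or more in the deeper band, and 279 and 339.5 in the other.

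**Figure D5:**
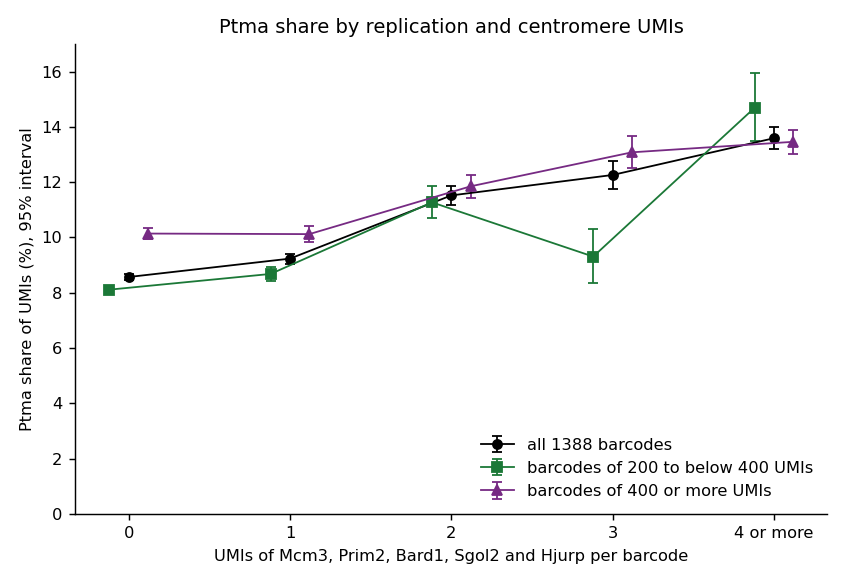
Pooled Ptma share of UMIs, with 95% counting intervals, against the number of UMIs of Mcm3, Prim2, Bard1, Sgol2 and Hjurp per barcode, in all 1388 barcodes and in 2 bands of the total. The share is 8.57% at 0 and 13.6% at 4 or more in all barcodes, and 10.1% and 13.5% among barcodes of 400 or more UMIs. In that band the median total is 480 UMIs at 0 and 584 at 4 or more.

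In the groups by Arl4c and Gsta3 the ratio changed when barcodes were held to a band of depth. In 213 barcodes with 2 or more Arl4c UMIs the Ptma share was 10.1% against 9.28% in the rest, 1.09-fold (1.06 to 1.12), and 1.17-fold (1.12 to 1.21) at 200 to below 400 UMIs. At 400 or more UMIs the ratio was 0.969 (0.934 to 1.00). In 182 barcodes with 10 or more Gsta3 UMIs it was 10.8% against 9.25% in the rest (1.17, 1.14 to 1.20). Those barcodes were deeper, with a median of 408 UMIs against 274, and the ratio was 1.06 (1.02 to 1.11) at 200 to below 400 UMIs.

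In 110 barcodes with 2 or more Fn1 UMIs the ratio was 0.970 (0.936 to 1.01), and in 69 with 2 or more Ccl20 UMIs it was 0.991 (0.948 to 1.04). Both intervals include 1 over all barcodes, but at 200 to below 400 UMIs the Fn1 ratio was 0.938 (0.883 to 0.996). The 29 barcodes with 2 or more Alpi UMIs were deep, with a median of 501 UMIs, and had a ratio of 0.952 (0.899 to 1.01), with 0.902 (0.846 to 0.960) at 400 or more UMIs and 0.687 (0.592 to 0.794) in 10 barcodes of 200 to below 400. In 64 barcodes with 3 or more Ptpn18 UMIs it was 0.914 (0.871 to 0.958), a difference found at 400 or more UMIs (0.790, 0.738 to 0.845) and not at 200 to below 400 (1.02, 0.944 to 1.09). The 28 barcodes with an Inpp5d UMI, a gene best known from blood and tuft cells, had 11.1% against 9.36% in the rest (1.18, 1.11 to 1.26).

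The neighbours of Ptma on the chromosome did not all follow it. Within 500 kb, 5 genes had 100 or more UMIs over all kept barcodes. Pde6d, which encodes a carrier of prenylated proteins and ends 12.3 kb downstream of Ptma on the other strand (chromosome 1, 86542994 to 86582629), was at 1228 CPM in Ptma-high barcodes and 649 CPM in Ptma-low barcodes, 1.89-fold (1.38 to 2.63) and 2.20-fold (1.60 to 3.07) depth-matched. Ncl, 167 kb upstream, is given above. Cops7b of the COP9 signalosome, 52.2 kb away, was at 1.03 (0.666 to 1.62), the proteasome gene Psmd1 at 1.15 (0.984 to 1.34) and 2810459M11Rik at 0.882 (0.656 to 1.19).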

How the data were processed

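Counts per gene and barcode, as whole numbers, were deposited in 1 table and are read here as UMIs, with gene symbols in rows and 16-base barcodes in columns. Per the submitters' processing notes, Cell Ranger, Seurat 2.3.0 and mm10 were used, without role or order. No annotation or earlier filter is named in the labels. Of 779 complete rows, 711 matched by symbol a chromosome 1 gene of GENCODE M21 (GRCm38, which mm10 names), up to position 89933290. Only chromosome 1 was searched, so the 68 rows not matched were not placed. Barcodes under 100 UMIs (72 of 1460) and 1 incomplete row were left out, 0 value columns were unused, and barcodes repeated 0 times. The 8 samples could not be told apart, and the labels do not say whether they are separate animals. No doublet caller was run; the deepest 5% of barcodes were left out in an alternative, given in the closing section.

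Python 3.11.15, numpy 2.4.6, scipy 1.17.1 and pandas 2.3.3 were used, on depths ranging from 100 to 1082 UMIs per barcode. Shares have Clopper-Pearson intervals, levels Poisson intervals and ratios conditional binomial intervals. They cover counting error only and are too narrow for genes whose UMIs sit in few barcodes. Residuals used an overdispersion parameter of 100 and a limit of 10. The ratio calculation was tested on simulated data. Members and lists were chosen with earlier results of these data known. Genes were named as the 12 highest and 12 lowest ratios among those past 1.5-fold with 100 or more UMIs in both sets together. Of these, 8 were lower. Also named were the 6 most and 4 least like Ptma, the 10 most abundant, neighbours within 500 kb and members of the lists. Most list members under the minimum are given by their UMIs. A gene that this rule names is not reported here and is left out of the plots, but stays in the counts and totals.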

Additional observations from a re-analysis of the deposited data

Results flagged for a closer look

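Ptma was also present in the 72 barcodes of under 100 UMIs that were left out. It took 270 of their 5043 UMIs, 5.35% (4.75 to 6.01), above the 0.0595% that a count of 0 would allow there. All but 3 of these barcodes held a Ptma UMI. The share lies below the 6.76% of barcodes with 100 to 149 UMIs, and free RNA in the droplets was not measured.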

How the results depend on the processing

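Against 12 genes past 1.5-fold higher and 8 lower, sets drawn within 5 bands of the total gave 6 and 3, and thinning to 100 UMIs gave 3 and 4 of only 80 genes compared. A minimum of 50 UMIs gave 19 and 14. Higher genes numbered 7 without Rpl7, Rpl31 and Rpl37a and 6 without the 3 richest barcodes, and lower genes 5 with barcodes weighted equally. Of the 20 genes, 18 kept their direction under all 11 alternatives. Terf1 (0.907, from 16 and 20 UMIs) and Orc2 (0.992, from 14 and 16) turned with thinning. Mcm3 (2.27 to 4.05), Hjurp (2.07 to 3.47) and Alpi (0.171 to 0.408) had ratios past 1.5-fold in all 11 but reached 100 UMIs in 9, so 0 of the 20 genes counted as past it in every alternative. Without the deepest 5% of barcodes 8 genes were higher, 6 of them among the 12, and 8 lower, 7 of them among the 8, and Alpi was at 0.171. The Ptma share was 9.67% at 200 or more UMIs, 8.71% with barcodes weighted equally and 15.7% without the 3 ribosomal genes. Its rho with the total was 0.326 with Ptma in the total and 0.177 at 200 or more UMIs. The variance ratio, which grows with counts, was 2.65 after thinning, an alternative chosen after seeing the data. In barcodes of 200 to below 400 UMIs, ratios of the Ptma share were 1.17 for the replication and centromere genes, 1.02 for Ptpn18 (turned), 1.17 for Arl4c, 0.687 for Alpi, 1.06 for Gsta3 and 1.39 for Inpp5d; the cause was not tested. No paired analysis was possible because there is 1 group and the barcodes carry no sample.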
